A study of Mus musculus with 4 samples.

Results

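The genes described here are 10 of the 32285 genes in the deposited count tables: the activator protein 1 (AP-1) subunits Fos, Fosb, Fosl2, Jun, Junb and Jund, the related factor Atf3, and the immediate early genes Ier2, Zfp36 and Btg2. They were chosen by symbol. Single-cell RNA sequencing was done on CD45-positive cells sorted from tumours that grew after 100000 cells of MC38, a mouse colorectal tumour line, were injected under the skin of 8-week-old mice. The mice were WT or Trim25 cKO, a conditional knockout of the ubiquitin ligase gene Trim25. The title of the series locates this ablation in T cells. The libraries were WT-1 and WT-2 from WT mice, and cKO-1 and cKO-2 from Trim25 cKO mice. The labels do not describe the floxed allele, the Cre driver or the mouse strain, and nothing says whether a library came from 1 animal or several. The replicates are therefore labelled samples, and p-values measure only the spread between them, which may be technical. The question asked of the 10 genes was whether their differences between libraries are shared by all cell classes of a library, and how they compare with the difference between genotypes.

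AP-1 is a dimer of basic leucine zipper proteins that binds DNA at short palindromic sites. FOS and JUN family subunits are made within minutes of a signal through MAP kinases, calcium or cell stress, because their promoters are held ready by factors such as SRF and CREB and their mRNAs are short-lived. In immune cells the same genes are switched on by antigen receptors, by sensing of microbes and cytokines, and by tissue dissociation, while Jund is known for a steadier, less inducible mRNA. ZFP36 and BTG2 act at the other end of mRNA life: ZFP36 binds AU-rich elements, and BTG2 recruits the CCR4-NOT deadenylase.

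Promoter sequences of 9 of the 10 genes were matched by symbol in RefSeq (build GRCm38.p6), with Ier2 unmatched. Fos, Fosb and Jun were picked as inducible AP-1 subunits that differed between libraries in 15 or 16 classes. Jund was picked for a log2 fold change above 0 between genotypes in 16 of 16 classes. Zfp36 was added as a decay factor and Btg2 for its class-dependent change. The 250 bases before the RefSeq start site are shown for these 6. Each reads 5′ to 3′ on the gene's strand, and capitals mark matches, on either strand, to the CRE core TGACG, the full CRE TGACGTCA, the TATA box TATAAA and the CArG box bound by SRF. The windows are chr12:85473640-85473889 (plus strand), chr7:19310046-19310295 (minus), chr4:95052223-95052472 (minus), chr8:70697489-70697738 (plus), chr7:28379229-28379478 (minus) and chr1:134079156-134079405 (minus).
Fos: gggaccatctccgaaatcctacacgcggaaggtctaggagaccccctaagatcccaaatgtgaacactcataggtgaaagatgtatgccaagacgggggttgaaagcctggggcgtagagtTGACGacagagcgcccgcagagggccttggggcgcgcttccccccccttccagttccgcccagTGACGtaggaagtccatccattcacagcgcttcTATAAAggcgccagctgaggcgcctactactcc
Fosb: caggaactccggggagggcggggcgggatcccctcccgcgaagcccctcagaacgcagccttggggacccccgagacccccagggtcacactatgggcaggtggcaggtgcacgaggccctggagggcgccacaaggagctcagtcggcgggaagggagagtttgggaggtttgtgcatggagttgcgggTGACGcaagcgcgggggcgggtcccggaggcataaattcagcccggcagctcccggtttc
Jun: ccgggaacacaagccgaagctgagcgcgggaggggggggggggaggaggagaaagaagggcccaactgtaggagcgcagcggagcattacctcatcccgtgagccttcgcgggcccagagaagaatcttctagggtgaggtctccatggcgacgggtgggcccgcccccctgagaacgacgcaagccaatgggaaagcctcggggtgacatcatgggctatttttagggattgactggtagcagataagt
Jund: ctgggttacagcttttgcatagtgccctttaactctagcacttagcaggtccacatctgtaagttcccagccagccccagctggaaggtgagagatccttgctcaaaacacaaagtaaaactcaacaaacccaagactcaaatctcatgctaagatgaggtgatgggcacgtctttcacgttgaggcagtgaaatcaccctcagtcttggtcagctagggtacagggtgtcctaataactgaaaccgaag
Zfp36: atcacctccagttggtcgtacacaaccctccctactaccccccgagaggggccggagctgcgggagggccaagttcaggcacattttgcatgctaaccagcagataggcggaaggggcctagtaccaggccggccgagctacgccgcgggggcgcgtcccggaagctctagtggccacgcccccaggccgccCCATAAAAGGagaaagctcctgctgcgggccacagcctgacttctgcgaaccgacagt
Btg2: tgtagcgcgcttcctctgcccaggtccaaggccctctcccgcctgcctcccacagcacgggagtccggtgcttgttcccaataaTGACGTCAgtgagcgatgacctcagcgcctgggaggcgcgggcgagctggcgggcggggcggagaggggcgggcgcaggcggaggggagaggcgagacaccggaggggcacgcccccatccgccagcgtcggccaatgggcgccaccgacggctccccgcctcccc

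The CRE core lay in the windows of Fos, Fosb, Junb, Atf3 and Btg2, and in 17.8% of all 32851 RefSeq promoter windows of the same length. The full CRE, which contains the core, was found in Btg2 alone of the 9 and in 1.55% of all windows. The CArG box was found in Zfp36 alone of the 9, against 1.47% of all windows, and the TATA box in Fos alone, against 12.4%. The AP-1 site TGACTCA was in none of the 9 windows and in 4.46% of all windows. These are matches of letters, not tested sites. The Jund window held 47.6% G and C, against 58.4% for Fos and 73.2% for Btg2 (median of all windows 52.4%). It ends at position 70697738, upstream of the GENCODE start of Jund at 70698949. Its composition and lack of matches may therefore not be those of the bases before that start. The windows of Zfp36, Fosl2 and Atf3 lie inside the genes as annotated in GENCODE, with Zfp36 starting at 28380253 on the minus strand.

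In GENCODE vM21 on GRCm38, Jun, Jund and Ier2 are annotated with 1 exon, and Fos (chr12:85473890-85477273) with up to 4. Genes on the opposite strand overlap Jun (Junos), Junb (Prdx2), Jund (Gm11175), Zfp36 (Gm44710) and Atf3 (Gm24748). The labels do not say whether counting used strand, so it is not known whether reads of these partners were counted for the named genes.

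The libraries held 96751399 to 127449324 UMIs (unique molecular identifiers, 1 per captured mRNA molecule) in 8533 to 12318 barcodes, and 39906 cells passed the filters. Any 2 libraries shared 42 to 59 barcodes. Cells were clustered without the 10 genes and without the related gene lists, and clusters were named from marker genes. Class names carry "-like" because they stand for clusters that resemble that class. UMIs were summed per library and class, in 16 classes with at least 20 cells in every library. Trim25 mRNA was present in every library, was lower in both cKO than in both WT libraries in 9 of 16 classes and higher in 1, and passed the test in none of the 15 classes tested (lowest adjusted p = 0.293, edgeR). In CD8 T-like cells the WT libraries held 56.1 and 52.3 CPM (counts per 1000000 UMIs of the class) and the cKO libraries 41.7 and 37.2 CPM. Vsir, which encodes VISTA, was at 80.0, 69.4, 90.5 and 84.1 CPM in CD4 conventional T-like cells (adjusted p = 0.831, edgeR). The labels name a 3′ v3 kit, whose counts would not show whether an upstream exon was deleted, but the 20-base barcodes are not of that kit's length, and the platform was not settled. The sort gene Ptprc, which encodes CD45, was at 653 to 4063 CPM in 15 classes. In fibroblast or tumour-like cells, which the sort should remove, it was at 71.5 to 156 CPM.

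The levels of the AP-1 genes were set first by cell class. Fos, the founding FOS subunit, was lowest in CD8 T-like cells, at 563 CPM in WT-1, 332 in WT-2, 456 in cKO-1 and 446 in cKO-2. It was highest in mast or basophil-like cells, at 8583, 2634, 6762 and 3765 CPM in the same order, a 12.1-fold higher mean, with the widest spread of any class (SD 2727 CPM over 4 libraries). Monocyte-like cells held 5070, 4317, 4305 and 4860 CPM. Every library of the 7 classes from type 2 dendritic-like cells upward in mean level exceeded every library of the 9 lower classes, which were the lymphocyte-like, plasmacytoid dendritic-like, migratory mature dendritic-like and fibroblast or tumour-like cells. Among the 7, all libraries of non-classical monocyte-like cells lay above all libraries of macrophage-like cells. The mast or basophil-like WT-2 value lay below those of macrophage-like cells. Other neighbours in the order of mean level overlapped between libraries.

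**Figure D1:**
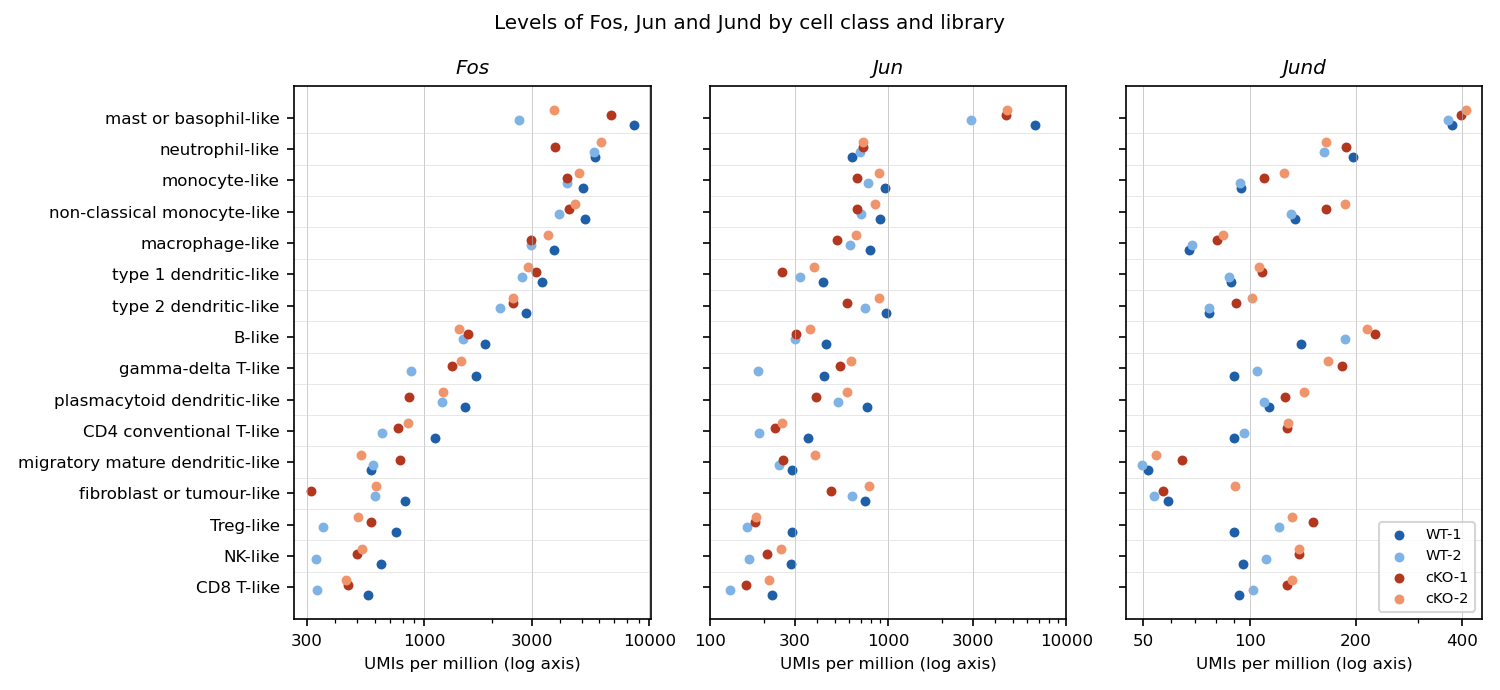
Levels of Fos, Jun and Jund in CPM (log axes) for each cell class (rows, ordered by Fos) and library (colours, 1 point per library). Fos spans 12.1-fold and Jun 26.0-fold between class means, and in the Jund panel the cKO points lie to the right of the WT points in 14 of 16 classes.

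Jun, the partner of Fos, was also lowest in CD8 T-like cells (222, 130, 160 and 214 CPM in the same order of libraries) and highest in mast or basophil-like cells (6699, 2900, 4616 and 4667 CPM), a 26.0-fold range of class means. All libraries of that class exceeded all libraries of the next class, monocyte-like cells, with a mean of 823 CPM. Fosb, Jund and Ier2 were likewise separated at the top, with mast or basophil-like means of 1036, 387 and 1785 CPM against 233 (type 2 dendritic-like), 192 (B-like) and 247 CPM (neutrophil-like) for the next class. This class was small, with 24 to 41 cells per library. Junb, a JUN subunit with weaker activity than JUN, was in 5 blocks of classes whose libraries did not overlap, from 94.4 CPM in plasmacytoid dendritic-like cells to 1906 in neutrophil-like and 4208 CPM in mast or basophil-like cells.

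Fosl2, which encodes the FOS subunit FRA2, had a mean of 8.45 CPM in plasmacytoid dendritic-like cells and 217 CPM in neutrophil-like cells, with overlap all along the order of classes between. Atf3, a stress-induced repressor and partner of AP-1, had class means of 305 to 680 CPM in the monocyte-like, non-classical monocyte-like, macrophage-like, neutrophil-like and type 1 and type 2 dendritic-like classes, and of 27.8 to 135 CPM in the 10 others. The decay factor Zfp36 ran from 130 CPM in fibroblast or tumour-like cells to 5780 in mast or basophil-like cells, and Btg2, an antiproliferative gene, from 34.9 CPM in fibroblast or tumour-like to 1366 CPM in neutrophil-like cells. Ier2, an early nuclear protein, had the widest range of class means, 53.8-fold, and Jund the narrowest, 7.05-fold.

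Between the 2 WT libraries, most of the 10 genes differed in the same direction in nearly every class. WT-1 exceeded WT-2 in 135 of 160 pairs of gene and class. Over the 2230 genes tested in every class, 55.1% of pairs lay that way. The direction was shared by all 16 classes for Fosb, by 15 for Fos, Jun, Junb and Zfp36, by 14 for Ier2, by 13 for Atf3 and Btg2, and by 11 for Fosl2. Jund split evenly, 8 against 8. Of the 2230 genes, 6.55% had WT-1 above WT-2 in 15 or more classes, against 5 of the 10 genes here.

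Fosb, an inducible FOS subunit, showed the largest difference. In CD4 conventional T-like cells it was at 167 CPM in WT-1, 61.2 in WT-2, 102 in cKO-1 and 112 in cKO-2, and in NK-like cells at 113, 51.7, 92.7 and 108 CPM. The cKO values lay between the WT values in both classes, so the groups overlapped. Its median log2 difference of WT-1 over WT-2 across classes was 0.90 (range 0.29 to 1.52, on log2(CPM + 1)). The same median was 0.48 for Jun, 0.39 for Zfp36, 0.38 for Fos and Atf3, 0.34 for Junb, 0.33 for Ier2, 0.26 for Fosl2 and 0.21 for Btg2, against 0.0027 for Jund and 0.017 over all 149516 tested pairs. The sizes varied between classes. Fos in Treg-like cells was at 748 CPM in WT-1 and 354 in WT-2, a 2.11-fold difference, with 576 and 508 CPM in the cKO libraries. In neutrophil-like cells it was at 5725 and 5659 CPM, 1.01-fold. Fos and Jun had 1 exception each, in migratory mature dendritic-like and neutrophil-like cells, and so did Zfp36 and Junb: Zfp36 in fibroblast or tumour-like cells was at 82.5 CPM in WT-1 and 215 in WT-2, and Junb in gamma-delta T-like cells at 529 and 725 CPM, both against the direction of the other 15 classes.

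**Figure D2:**
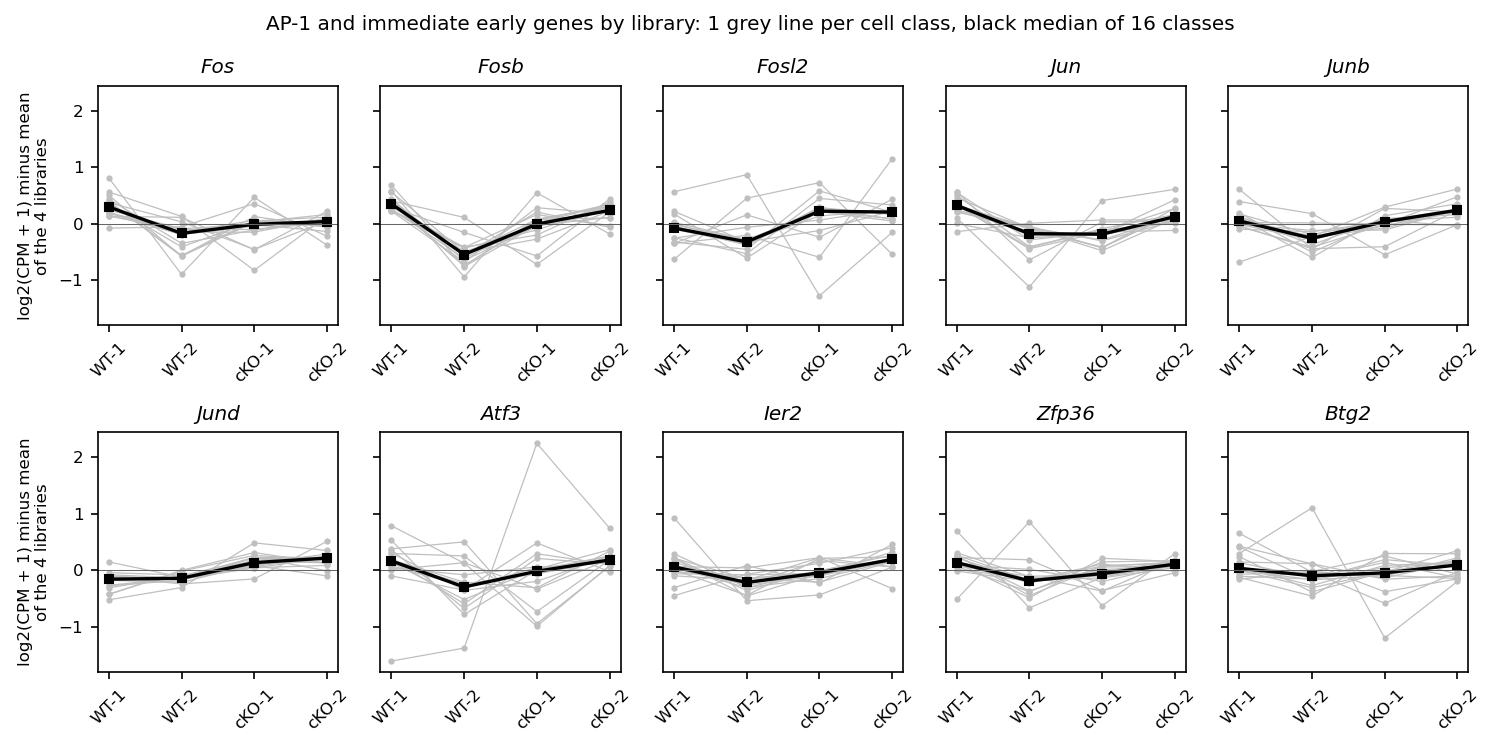
Each panel shows 1 gene. Grey lines join the values of 1 cell class in the 4 libraries, as log2(CPM + 1) minus the mean of the 4 libraries, and the black line is the median of 16 classes. WT-2 is the low point for Fosb in 14 classes and for Junb in 13, and Jund is higher in the cKO libraries.

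WT-2 was the lowest of the 4 libraries in 106 of 160 pairs, against 28.1% of pairs over the 2230 genes. It was lowest for Fosb in 14 classes, Junb in 13, Ier2 and Zfp36 in 12, Fosl2 in 11 and Atf3 in 10. WT-1 was the highest library for Fos in 14 classes and for Jun in 12. The cKO libraries differed too, in the opposite order of their numbers: cKO-1 exceeded cKO-2 in 45 of 160 pairs (51% over the 2230 genes), and Jun was lower in cKO-1 in 16 of 16 classes. In macrophage-like cells Jun was at 514 CPM in cKO-1 and 658 in cKO-2, and at 788 and 608 CPM in WT-1 and WT-2. Its cKO and WT libraries overlapped there.

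**Figure D3:**
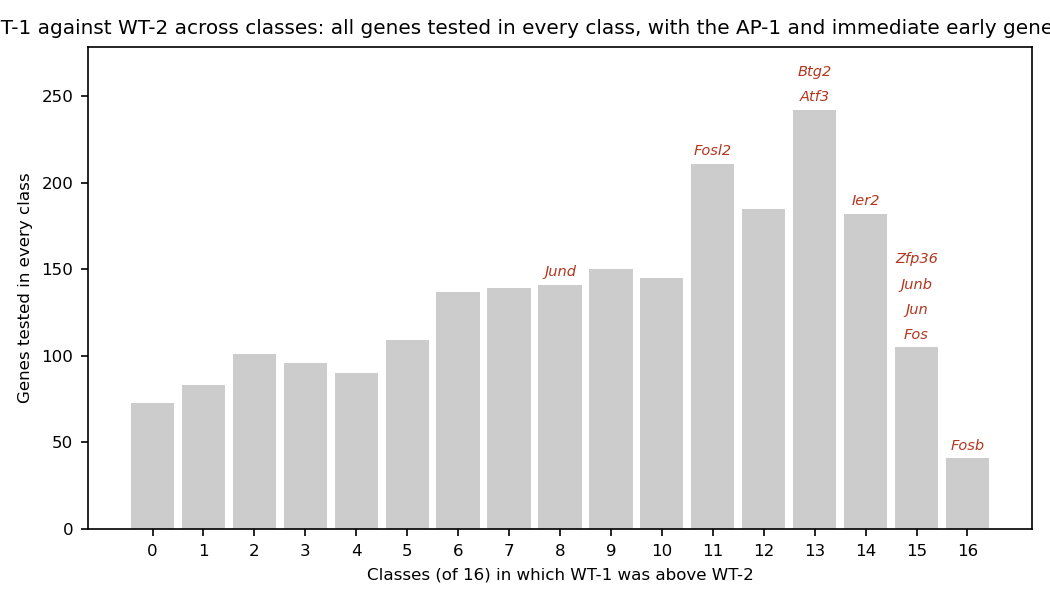
Number of classes (x axis, 0 to 16) in which WT-1 exceeded WT-2, counted for the 2230 genes tested in every class (y axis, genes per bar), with the 10 genes written above their bar. Fosb sits at 16, Fos, Jun, Junb and Zfp36 at 15, and Jund at 8.

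Several other measures also differed between the libraries, not all in the same order as the genes, and their part in the library difference was not tested. The share of UMIs from ribosomal protein genes was higher in WT-2 than in WT-1 in 15 of 16 classes, and higher in cKO-1 than in cKO-2 in 15. Median mitochondrial percent was higher in WT-2 in 12 classes and in cKO-1 in 14. Median UMIs per cell were higher in WT-2 in 3 classes and in cKO-1 in 11. In NK-like cells, the summed level of 6 monocyte markers was 1797 CPM in WT-1 and 1828 in WT-2, while Fos was at 638 and 328 CPM. The part of that sum that was free or mixed-in monocyte RNA, and not made by the cells themselves, was not tested. Macrophage markers moved with the shift in some classes. All 6 were higher in WT-1 than in WT-2 in B-like (sums 1138 and 583 CPM), CD8 T-like (739 and 629 CPM) and fibroblast or tumour-like cells (220 and 112 CPM), and 5 of 6 were higher in NK-like (304 and 286 CPM) and gamma-delta T-like cells (736 and 340 CPM). Over the 15 classes other than their own, the summed level was higher in WT-1 in 8 for the macrophage markers and in 3 for the monocyte markers. Taking each cluster singly in place of the classes, WT-1 exceeded WT-2 in 253 of 310 pairs of gene and cluster.

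The difference was also seen per cell. After each cell was thinned to 3000 UMIs, the median monocyte-like cell held 13 Fos UMIs in WT-1, 10 in WT-2, 11 in cKO-1 and 13 in cKO-2. The 10th to 90th percentiles were 1 to 33, 1 to 29, 1 to 27 and 2 to 29, so single cells of the 4 libraries overlapped widely. Shallower cells were left out, 183, 262, 104 and 177 in the same order. In NK-like cells the median was 1 in WT-1 and both cKO libraries and 0 in WT-2, and the 90th percentile was 7, 3, 5 and 5.

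Across the 64 sums of class and library, each gene's deviation from its class mean followed that of other members to differing degrees. Pearson's r was 0.80 between Fos and Fosb, 0.78 between Junb and Ier2, 0.70 between Fos and Jun, 0.67 between Ier2 and Zfp36, and 0.64 between Zfp36 and Btg2. Jund was apart from Fos (-0.06) and Jun (0.01) and closer to Junb (0.51). These are descriptions over 64 points that share 4 libraries. Among 7602 other genes with sufficient counts, those most like the mean of the 10 included Tnfaip3 (r = 0.77), which restrains NF-kB signalling, Rgs2 (0.76), a regulator of G protein signalling, Ccnl1 (0.75), Ppp1r15a (0.74), a stress-induced phosphatase subunit, the MAP kinase phosphatase Dusp1 (0.74), Ifrd1 (0.74) and Nfkbiz (0.71). Most like Fos were Akap13 (0.72), Rgs2 (0.70), Mvp (0.69), Tbc1d22a (0.69) and Slc8b1 (0.65), and among those most like Jun were Klhl24 (0.70), Bbx (0.69), Cd274 (0.69) and Snx10 (0.66).

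Between genotypes, none of the 160 pairs of gene and class passed the test (edgeR quasi-likelihood test, adjusted over all genes of the class), although the 10 genes lay above 0 more often than other genes. All 10 genes passed the filter on low counts in all 16 classes. Log2 fold change of cKO over WT was above 0 in 115 of 160 pairs, against 50.2% of 149516 pairs over all genes, with a median of 0.16 against 0.0011. Unadjusted p was under 0.05 in 37 of 160 pairs (6.42% over all genes). DESeq2 called 1 of the 152 pairs to which it gave an adjusted p (0.176% of 124100 such pairs over all genes), Fosl2 in CD8 T-like cells. Both cKO libraries exceeded both WT libraries in 47 pairs (15.5% over all genes) and lay below both in 10 (20% over all genes). Of the 47, Jund gave 14 and Fosl2 gave 11. Over all genes, the share passing the edgeR test was 0.627% in plasmacytoid dendritic-like, 0.389% in B-like, 0.239% in CD4 conventional T-like, 0.161% in Treg-like, 0.0175% in CD8 T-like, 0.017% in type 2 dendritic-like and 0.00737% in monocyte-like cells, and 0% in the other 9 classes. The share of pairs above 0 rested on WT-2: without that library it was 46.2%, and without WT-1 it was 84.4%. Calls also moved when single libraries were left out, but they are not counted here. In such fits the lone library of a genotype is assumed to vary like the other group, and no share over all genes is given.

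Jund, a JUN subunit with a steady mRNA, kept 1 direction between genotypes in more classes than any other of the 10. In CD8 T-like cells it was at 93.3 CPM in WT-1, 102 in WT-2, 127 in cKO-1 and 132 in cKO-2 (log2 fold change 0.43, SE 0.12, n = 2 libraries per group, edgeR adjusted p = 0.249). In monocyte-like cells the values were 94.5, 94.0, 110 and 125 CPM, and in gamma-delta T-like cells 90.3, 105, 183 and 166 CPM. Both cKO libraries were above both WT libraries in each of these classes, and in 14 of 16 in all, the exceptions being neutrophil-like and fibroblast or tumour-like cells. The fitted log2 fold change was above 0 in 16 of 16 classes, with a median of 0.38 and a range of 0.04 to 0.81, and unadjusted p was under 0.05 in 10 of them. A higher cKO than WT mean in at least 15 classes was seen in 2.56% of the 2230 genes, and in Jund and Fosl2 among the 10. The median lay between 0.33 and 0.41 over 15 settings, which include leaving out each library.

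Fosl2 had the lowest adjusted p of the 10. In CD8 T-like cells it was at 48.8 CPM in WT-1, 39.9 in WT-2, 79.5 in cKO-1 and 73.3 in cKO-2 (log2 fold change 0.82, SE 0.13, n = 2 per group, edgeR adjusted p = 0.0717; DESeq2 adjusted p = 0.0114). In CD4 conventional T-like cells the levels were 52.0, 47.5, 98.4 and 75.3 CPM (log2 fold change 0.82, SE 0.21, edgeR adjusted p = 0.126). Both cKO libraries lay above both WT libraries in these classes and in 11 of 16 in all. The median log2 fold change was 0.39. Plasmacytoid dendritic-like cells went the other way, at 11.1, 13.9, 2.38 and 6.37 CPM (log2 fold change -1.34, SE 0.47), the class where Fosl2 was lowest.

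**Figure D4:**
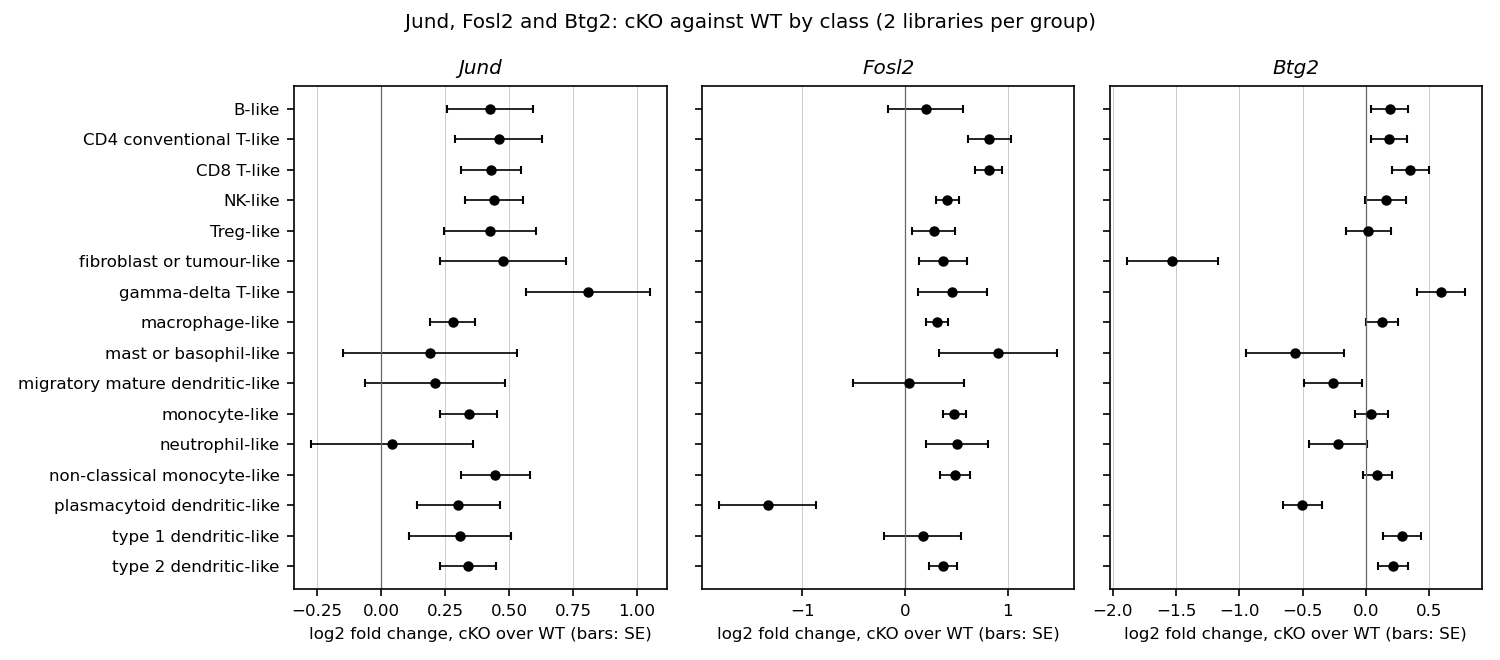
Log2 fold change of cKO over WT (points) with its SE (bars) for Jund, Fosl2 and Btg2 in each cell class, from 2 libraries per group. Jund lies above 0 in 16 of 16 classes, Fosl2 in 15, and Btg2 runs from -1.53 in fibroblast or tumour-like cells to 0.60 in gamma-delta T-like cells.

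None of the inducible members had a direction shared by all classes. Fos had a median log2 fold change of -0.01 and Jun of -0.09, with 7 and 6 of 16 classes above 0. The cKO and WT libraries of Fos overlapped in 16 of 16 classes, and so did those of Fosb, whose median was 0.18. Both cKO libraries of Jun exceeded both WT libraries in neutrophil-like and gamma-delta T-like cells, in the latter at 434 CPM in WT-1, 185 in WT-2, 536 in cKO-1 and 615 in cKO-2 (log2 fold change 0.97, SE 0.27, edgeR adjusted p = 0.486). Gamma-delta T-like Junb was at 529, 725, 1038 and 1298 CPM (log2 fold change 0.88, SE 0.19, edgeR adjusted p = 0.336), again with both cKO libraries above. This class held 37 cells in WT-1 and 72 to 130 in the other libraries. The summed level of its own 5 gamma-delta markers was 2548, 3301, 4401 and 4461 CPM, the same order of libraries as Junb, and the part of class purity in these values was not tested. Junb had a median of 0.24 over the classes and Ier2 of 0.18, each with 13 of 16 classes above 0. These medians moved when each library was left out, taken in the order used above: Junb was at 0.42, 0.08, 0.35 and 0.16, Ier2 at 0.34, 0.06, 0.27 and 0.06, and Fosb at 0.64, -0.22, 0.34 and 0.09. Without WT-2, 11 classes lay above 0 for Junb, 9 for Ier2 and 1 for Fosb. For Zfp36 the median was 0.05. In neutrophil-like cells Zfp36 was at 4014, 3903, 2677 and 3331 CPM, with both cKO libraries below both WT libraries (log2 fold change -0.36, SE 0.22, edgeR adjusted p = 0.714).

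**Figure D5:**
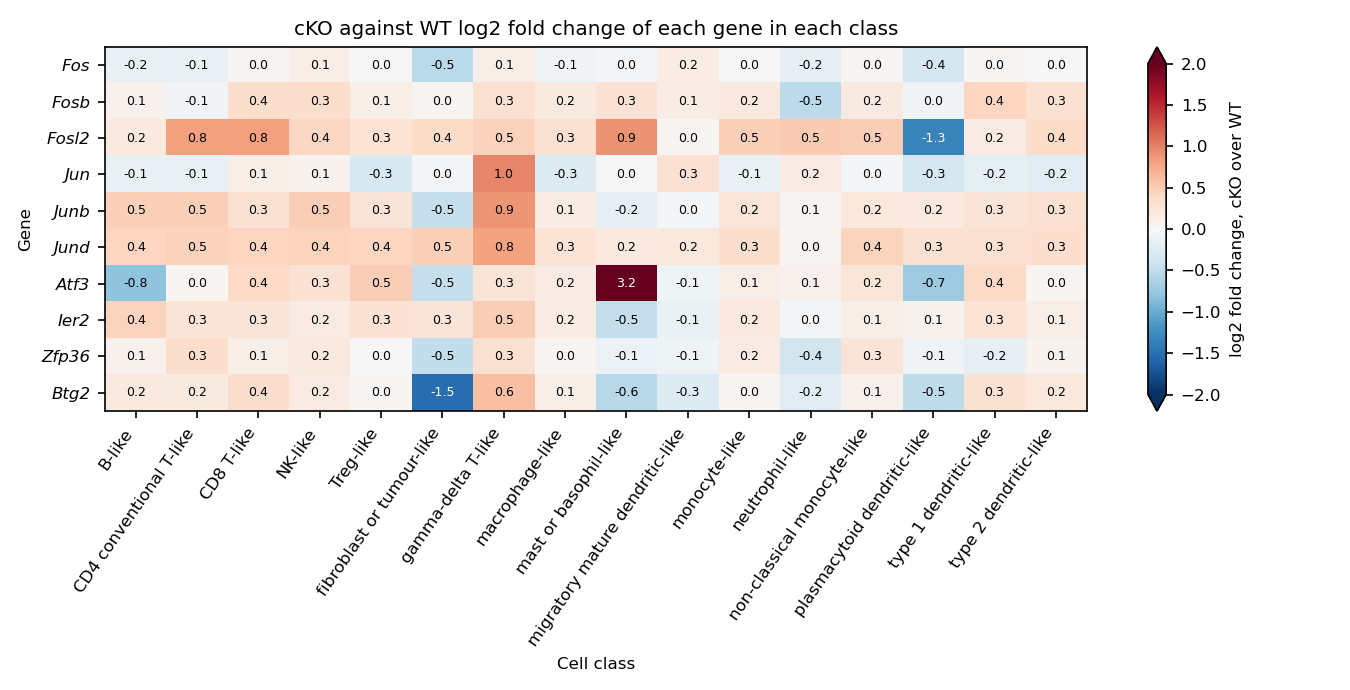
Log2 fold change of cKO over WT for the 10 genes (rows) in the 16 cell classes (columns); red is higher in cKO, blue lower, and the colour scale ends at -2 and 2. The row of Jund is red throughout, and the columns of plasmacytoid dendritic-like and fibroblast or tumour-like cells hold 3 and 4 of 10 values above 0.

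The classes differed in how many of the 10 genes lay above 0. All 10 did in CD8 T-like, NK-like and gamma-delta T-like cells, with medians of 0.33, 0.24 and 0.48. In plasmacytoid dendritic-like cells 3 of 10 did (median -0.20), and in fibroblast or tumour-like cells 4 of 10 (median -0.25). Over all genes the share above 0 was 50.5%, 49.8%, 50.2%, 50.4% and 49.1% in the same order of classes. WT-2 was the low library in CD8 T-like, NK-like and gamma-delta T-like cells. Its mean deviation over the 10 genes was -0.43, -0.46 and -0.50, against 0.12, 0.19 and -0.03 in WT-1. In the cKO libraries it was 0.11, 0.08 and 0.19 (cKO-1) and 0.20, 0.19 and 0.34 (cKO-2). In the plasmacytoid dendritic-like and fibroblast or tumour-like classes cKO-1 was low (-0.41 and -0.53). In the plasmacytoid dendritic-like cells Fos was at 1517 CPM in WT-1, 1200 in WT-2, 855 in cKO-1 and 1215 in cKO-2, and Btg2 at 381, 307, 218 and 255 CPM (log2 fold change -0.50, SE 0.15, edgeR adjusted p = 0.272). The summed level of 6 macrophage markers in that class was 316, 847, 208 and 175 CPM, with none of the 6 at 0 over all libraries, and its part in these values was not tested. Atf3 had the largest fold change of the 160 pairs, in mast or basophil-like cells, on few molecules: 2 UMIs in WT-1, 4 in WT-2, 49 in cKO-1 and 25 in cKO-2 (log2 fold change 3.17, SE 0.68, edgeR adjusted p = 0.177). The ratio of the pooled levels was 8.31, with an exact 95% interval of 3.64 to 23.4 for counting error only. The 6 macrophage markers summed to 375, 273, 1046 and 456 CPM in this class, with 1 of 6 at 0 and the highest value in cKO-1 as for Atf3, which had a mean of 513 CPM in macrophage-like cells. Their part was not tested. In B-like cells Atf3 was lower in both cKO libraries, at 86.2, 94.0, 33.8 and 69.4 CPM (log2 fold change -0.80, SE 0.26, edgeR adjusted p = 0.272). The 6 monocyte markers summed to 1816, 2175, 1065 and 1317 CPM in B-like cells, the same order of libraries as Atf3, and the 6 macrophage markers to 1138, 583, 408 and 551 CPM, with none of either list at 0. Atf3 had a mean of 680 CPM in monocyte-like and 70.9 CPM in B-like cells, and the part of these markers' source in its B-like values was not tested.

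A test of whether the genotype effect differs between classes called Btg2 alone of the 10 (edgeR interaction with the library as a term, F = 4.95, adjusted p = 0.00535). The same test called 1.11% of 12700 genes. The adjusted p was 0.168 for Atf3, 0.197 for Junb, 0.284 for Jun, 0.429 for Fosl2 and above 0.7 for the other 5. In fibroblast or tumour-like cells Btg2 was at 36.6 CPM in WT-1, 64.9 in WT-2, 12.4 in cKO-1 and 25.8 in cKO-2 (log2 fold change -1.53, SE 0.36, edgeR adjusted p = 0.435), and in gamma-delta T-like cells at 321, 255, 430 and 428 CPM (log2 fold change 0.60, SE 0.19, edgeR adjusted p = 0.569). The groups did not overlap in either class. The call rested on the fibroblast or tumour-like class: without it the adjusted p was 0.152. That class was uneven between libraries, with 76, 184, 396 and 147 cells, and its WT-1 value came from 20 UMIs. Ptprc in this class had the same order of libraries as Btg2 (126, 156, 71.5 and 107 CPM). The summed level of 6 macrophage markers was 220, 112, 67.7 and 142 CPM, none at 0, and that of 5 B cell markers 3.67, 96.9, 6.62 and 7.52 CPM, none at 0. Btg2 itself had means of 476 CPM in B-like and 492 CPM in macrophage-like cells, and the part of immune RNA in its fibroblast or tumour-like values was not tested.

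Genes that act with the 10 were read from 5 lists. Of 35 other immediate early genes, 514 pairs of gene and class were tested, of which 4 rose in cKO (0.0227% of pairs over all genes) and 0 fell (0.0676% over all genes). Dusp2, a MAP kinase phosphatase of activated lymphocytes, rose in 3 classes. In B-like cells the WT libraries held 107 and 117 CPM and the cKO libraries 275 and 260 CPM (log2 fold change 1.25, SE 0.15, edgeR adjusted p = 0.00719). It also rose in CD4 conventional T-like cells (52.0, 57.4, 135 and 162 CPM, log2 fold change 1.44, edgeR adjusted p = 0.000955) and in CD8 T-like cells (122, 100, 225 and 212 CPM, log2 fold change 1.00, edgeR adjusted p = 0.020). Nr4a1, an orphan nuclear receptor induced by antigen receptors, rose in CD4 conventional T-like cells (112, 78.1, 168 and 219 CPM, log2 fold change 1.04, edgeR adjusted p = 0.0164). For these 4 the WT and cKO libraries did not overlap. WT-1 exceeded WT-2 in 80.9% of the pairs of this list, against 84.4% for the 10 genes and 52.3% of the pairs over all genes.

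Of 16 other AP-1 and related leucine zipper factors, 202 pairs were tested, and 0 rose. The 27 MAP kinase and SRF genes (391 pairs) and the 13 CCR4-NOT and TOB partners (195 pairs) had 0 calls. Of 14 heat-shock chaperones, 203 pairs were tested, 3 fell (0.0676% of pairs over all genes) and 0 rose: Hspa1b in Treg-like cells (139, 94.3, 67.7 and 43.5 CPM, log2 fold change -1.07, edgeR adjusted p = 0.00813) and in plasmacytoid dendritic-like cells (122, 99.9, 35.0 and 35.2 CPM, log2 fold change -1.62, edgeR adjusted p = 0.00193), and Hspa1a in the latter (110, 72.6, 28.6 and 35.2 CPM, log2 fold change -1.44, edgeR adjusted p = 0.0146). Of the 60 genes that passed the test in plasmacytoid dendritic-like cells, the largest number of any class, 56 were lower in cKO. WT-1 exceeded WT-2 in 66.8% of the pairs of leucine zipper factors, 69.7% of CCR4-NOT partners, 64.0% of chaperones and 60.4% of MAP kinase and SRF genes.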

How the data were processed

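Single-cell RNA-seq counts were analysed for 4 libraries, 2 WT and 2 Trim25 cKO. The deposited values are raw UMI counts per gene and barcode, made by the authors with Cell Ranger and STAR on mm10, per the submitters' processing notes, which give no versions here. The deposited barcodes were 20 bases long, which is not the length of the 3′ kit named in the labels. Barcodes were dropped below 300 genes or 500 UMIs, or where mitochondrial UMIs exceeded 15%. Scrublet's automatic threshold marked 1, 0, 0 and 0 cells and had not worked, so doublets were set apart by score, at a limit of 0.2 for single cells and 0.1 for the median of a cluster. Cells were clustered in scanpy 1.11.5 (2000 variable genes without the 10 genes and the pathway lists, 30 components, 15 neighbours, Leiden resolution 1). Clusters were named from marker lists, with at least 3 markers detected in 25% of cells (a share of 0.25), a score of at least 0.5 and a lead of 0.3. These limits and the doublet rule were chosen after seeing the scores, and 32404 of 39906 cells were in the classes analysed.

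Counts were summed per library and class, in classes with at least 20 cells in every library, and tested in R 4.3.3 with edgeR 4.0.16 (quasi-likelihood test, TMM normalization, filterByExpr, Benjamini-Hochberg adjustment over all genes of a class, threshold 0.05). SE was the log2 fold change divided by the square root of F. The interaction of genotype and class was fitted over all sums with library and class as terms. CPM were UMIs per 1000000 of the sum, without TMM scaling, with a pseudocount of 1 on the log2 scale. The code was tested on simulated data. Alternatives were DESeq2 1.42.0, RLE size factors, no filter, each library left out, a replicate block, other cell filters and other clusterings. Named genes were the 10 members, list genes past the threshold (at most 5 per list and class), Trim25, Vsir, and the 8 or 5 genes most correlated with the members; some of these are not reported here. The members and lists were chosen with earlier results of these data known.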

Additional observations from a re-analysis of the deposited data

Results flagged for a closer look

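The genotype effect on Btg2 differed between cell classes by the edgeR interaction test, with an adjusted p of 0.00535 over 12700 genes. Its log2 fold change of cKO over WT ran from -1.53 (SE 0.36) in fibroblast or tumour-like cells to 0.60 (SE 0.19) in gamma-delta T-like cells, and 11 of 16 classes lay above 0. Without the fibroblast or tumour-like class the adjusted p was 0.152, without WT-2 it was 0.654 and without cKO-1 it was 0.378. In the fibroblast or tumour-like class Ptprc, the CD45 gene, had the same order of libraries as Btg2, at 126, 156, 71.5 and 107 CPM, while Btg2 had means of 34.9 CPM there, 476 in B-like and 1366 CPM in neutrophil-like cells. The part of immune RNA in the result was not tested.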

How the results depend on the processing

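The 160 pairs of gene and class gave 0 calls with all libraries in edgeR, and also with RLE size factors, a minimum of 2000 UMIs, doublets kept, resolution 2 or the 10 genes among the clustering genes. No filter on low counts gave 10 calls, which cannot be weighed because no share over all genes is given for that setting. DESeq2, a mitochondrial limit of 5% and single clusters gave 1 each. Leaving out 1 library gave 3 to 22. With the replicate block 74.4% of pairs lay above 0. Same-numbered libraries did not deviate together (median correlation 0.0113, range -0.182 to 0.0824 over 16 classes). The labels give no batch, and this check cannot tell whether same-numbered libraries shared one. The crossed replicate block, added after seeing the data because 1 class lay under -0.1, gave 73.1% of pairs above 0. The share of pairs above 0 was 71.9%, with a range of 46.2% (without WT-2, a reversed majority) to 84.4% (without WT-1) when 1 library was left out. It was 59.4% without cKO-2. The cause was not tested.

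The interaction test called 1 of the 10 genes, and 7 with no filter. The share of 1.11% over all genes belongs to the main fit, and none is given for the fit with no filter. The 7 calls therefore cannot be weighed against other genes, and no conclusion is drawn from them. Which genes the interaction test called also changed when single libraries were left out. It called 0 with the 5% limit (Btg2 adjusted p = 0.0604) and with resolution 2 (0.157, where the fibroblast or tumour-like class was absent). It also called 0 without the fibroblast or tumour-like class (0.152) or without that and the mast or basophil-like class (0.210). The last 2 and the single clusters were added after seeing the data. WT-1 exceeded WT-2 in 84.4% of pairs and in 78.3% to 85.3% under the alternatives. Of 150 recomputed median log2 fold changes of single genes, 145 differed from the main value by no more than the SD between same-genotype libraries. That SD comes from the same library differences that leaving out a library changes, so the count cannot show that the medians were stable. Fosb, with a main median of 0.18, counted as within it at 0.64 without WT-1 and at -0.22 without WT-2. Small classes limit precision, with 24 to 41 mast or basophil-like and 34 to 93 neutrophil-like cells per library.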
